A study of Xenopus laevis with 18 samples.

Results

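The 4 genes mprip, lima1, spata13 and prrg4 were followed through 3 subcellular fractions of Xenopus laevis oocytes and eggs, each as its L and S homeolog, the copies of a gene that this allotetraploid frog carries on its L and S subgenomes. The members were found by gene symbol in the deposited concentration table, which gave 8 of 51026 transcripts, and all 8 passed the filter on low counts together with the other transcripts tested (25938 in all). The genes had been chosen by their high ER over cytosol values in these same libraries, 5 of the 8 transcripts by name (mprip.L, lima1.S, spata13.L, spata13.S and prrg4.L) and mprip.S, lima1.L and prrg4.S only because they share a symbol with them. spata13.S was also known for high ER over pellet values in earlier results of these data. All members' values in the ER against the cytosol or the pellet are therefore a description with no test. Tests are given only for other comparisons.

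The study compared defolliculated stage VI oocytes with eggs, which are such oocytes after maturation in 2 µM progesterone, both kept at 18 °C. Each library came from 1 fraction of 4 cells, so a value is an average over a small pool in which fewer cells that hold an mRNA and less of it per cell cannot be told apart, and each of the 6 groups had 3 libraries: egg ER, egg pellet, egg cytosol, oocyte ER, oocyte pellet and oocyte cytosol. The labels call the 3 libraries biological replicates and name no frog, strain or mother, so the p-values cover the spread among these pools and no more. Values are of 2 kinds: the attomolar concentration (aM), which the authors made from TPM, an abundance corrected for transcript length, and 5 spike-in RNAs, and log2 fold changes from edgeR on estimated counts.

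Libraries held 23095793 to 37834036 estimated counts, and the 8 transcripts had 262.4 to 13610 each per library. The authors' aM values add up to the same 70657 aM over the 3 fractions of every stage and replicate number. The pellet of replicate 1 held more aM of all transcripts than the other pellets, 15013 aM in eggs and 12437 aM in oocytes, against 8273 to 8767 aM in the other egg pellets and 6581 to 8249 aM in the other oocyte pellets. One transcript, ccdc50.L, took 21.9 to 29.6% of TPM in egg ER and 16.9 to 17.8% in oocyte ER, but under 5% in the other fractions. The 36 transcripts of 20 ER resident and translocon proteins, taken as markers, summed to 2560 to 2883 TPM in egg ER and 3093 to 3285 TPM in oocyte ER, against 4298 to 4419 TPM in egg cytosol and 3796 to 3921 TPM in oocyte cytosol. With ccdc50.L taken out of the total, the list came to 3636 to 3693 TPM in egg ER and 3755 to 3995 TPM in oocyte ER, against 4326 to 4431 TPM in egg cytosol and 3814 to 3932 TPM in oocyte cytosol, so it was lower in the ER in eggs and overlapped between the fractions in oocytes. Oocyte markers (zar1, gdf9, zp2 and others) summed to 4079 to 4370 TPM in egg pellets, 2663 to 3335 TPM in egg ER and 3188 to 3308 TPM in egg cytosol. With ccdc50.L taken out, egg ER came to 3782 to 4272 TPM, egg pellets to 4158 to 4460 TPM and egg cytosol to 3212 to 3317 TPM. In oocytes these markers summed to 7868 to 8657 TPM in pellets, 1880 to 2035 TPM in ER and 1968 to 2120 TPM in cytosol. Without ccdc50.L they came to 8093 to 8936 TPM in oocyte pellets, 2262 to 2471 TPM in oocyte ER and 1977 to 2126 TPM in oocyte cytosol. On that scale they were higher in the ER than in the cytosol without overlap in both stages. Blood markers summed to 2.26 to 4.51 TPM over all libraries. Follicle cell markers (cyp17a1, star, hsd3b1 and others) summed to 195 to 216 TPM in egg pellets and 167 to 180 TPM in oocyte pellets. All ER and cytosol libraries had 64.4 to 99.1 TPM. The sum shows neither which of these genes carry it nor that their mRNA came from follicle cells.

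In mammalian cells MPRIP binds the targeting subunit of myosin phosphatase, RhoA and actin filaments, and so sits where RhoA signalling meets contraction. LIMA1, also called EPLIN, is a LIM domain protein that bundles and stabilizes actin filaments. SPATA13, also called ASEF2, is an exchange factor that loads Rac and Cdc42 with GTP and is activated by the APC protein. PRRG4 is a single-pass membrane protein with a vitamin K-dependent Gla domain outside the cell and short proline-rich motifs inside that bind WW domains. Messenger RNAs of membrane proteins are usually carried to the ER while they are translated, by the signal recognition particle. The first 3 proteins act in the cytoplasm and are not known for a signal peptide, and only PRRG4 is a protein made at the ER. A full-grown frog oocyte is transcriptionally quiet, so its mRNAs are maternal stores, many of them placed toward the animal or the vegetal pole.

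The transcripts of the myosin phosphatase partner were among the longest of the 8. mprip.L (gene39053, 17560 nt) stood at 0.937, 1.05 and 0.976 aM in the 3 egg ER libraries, against 1.30, 1.34 and 1.41 aM in the 3 oocyte ER libraries. The pellet held 0.335, 0.191 and 0.190 aM of it in eggs and 0.337, 0.134 and 0.200 aM in oocytes. In the cytosol it was at 0.435, 0.607 and 0.503 aM in eggs, against 0.0751, 0.0584 and 0.0811 aM in oocytes. Its oocyte ER libraries were the highest and its oocyte cytosol libraries the lowest of the 6 groups, and neither group overlapped its neighbour in that order. mprip.S (gene7659, 14081 nt) stood at 0.815, 0.992 and 1.00 aM in the 3 egg ER libraries, against 1.30, 1.32 and 1.35 aM in the 3 oocyte ER libraries. Its pellet levels were 0.377, 0.201 and 0.189 aM in eggs, against 0.323, 0.152 and 0.168 aM in oocytes. Egg cytosol held 0.295, 0.437 and 0.383 aM and oocyte cytosol 0.177, 0.170 and 0.183 aM. The homeologs had nearly the same level in each stage's ER, while oocyte cytosol held 2.37 times as much mprip.S as mprip.L (geometric mean of TPM ratios). For mprip.S the egg cytosol, both pellets and the oocyte cytosol overlapped with their neighbours.

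The actin bundler had the highest oocyte ER levels of the 4 genes. lima1.L (gene2504, 5771 nt) stood at 0.819, 1.47 and 1.49 aM in the 3 egg ER libraries, against 4.60, 4.83 and 5.14 aM in the 3 oocyte ER libraries. The pellet held 2.47, 1.58 and 1.55 aM of it in eggs and 1.67, 0.951 and 1.06 aM in oocytes. In the cytosol it was at 1.43, 1.37 and 1.54 aM in eggs, against 0.812, 0.694 and 0.761 aM in oocytes. Oocyte ER was above all other groups, and the egg ER values overlapped those of egg cytosol and of oocyte pellet. lima1.S (gene5085, 5737 nt) stood at 1.64, 2.34 and 2.40 aM in the 3 egg ER libraries, against 6.02, 6.11 and 6.43 aM in the 3 oocyte ER libraries. Its pellet levels were 2.44, 1.5 and 1.47 aM in eggs, against 1.60, 0.867 and 0.940 aM in oocytes. Egg cytosol held 1.66, 1.70 and 1.99 aM and oocyte cytosol 0.613, 0.363 and 0.435 aM. It too was highest in oocyte ER, where its 3 libraries lay above every other library, and egg ER overlapped egg pellet, which overlapped egg cytosol. In aM, replicate 1 of egg ER, the library with the highest share of ccdc50.L, was the lowest of its group for all 8 members. In TPM that library was the highest of its group for mprip.L and both spata13 homeologs. Its part in the egg ER values was not tested.

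The exchange factor's homeologs are nearly equal in length and differed in the cytosol. spata13.L (gene8243, 8847 nt) stood at 0.750, 0.834 and 0.869 aM in the 3 egg ER libraries, against 1.06, 1.06 and 1.07 aM in the 3 oocyte ER libraries. The pellet held 0.205, 0.0994 and 0.103 aM of it in eggs and 0.231, 0.0991 and 0.123 aM in oocytes. In the cytosol it was at 0.744, 0.946 and 0.797 aM in eggs, against 0.326, 0.320 and 0.372 aM in oocytes. Egg cytosol and egg ER overlapped, and the pellet held the least of it in both stages. spata13.S (gene10291, 8844 nt) stood at 1.17, 1.27 and 1.25 aM in the 3 egg ER libraries, against 1.37, 1.35 and 1.34 aM in the 3 oocyte ER libraries. Its pellet levels were 0.216, 0.129 and 0.124 aM in eggs, against 0.226, 0.106 and 0.128 aM in oocytes. Egg cytosol held 0.197, 0.274 and 0.226 aM and oocyte cytosol 0.125, 0.0981 and 0.105 aM. Both ER groups were above all other groups, and the egg and oocyte pellets, egg cytosol and oocyte cytosol formed a low range in which each overlapped the next.

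The membrane protein's homeologs were the least alike. prrg4.L (gene3443, 3896 nt) stood at 1.32, 1.67 and 1.91 aM in the 3 egg ER libraries, against 2.92, 2.88 and 3.13 aM in the 3 oocyte ER libraries. The pellet held 1.16, 0.679 and 0.686 aM of it in eggs and 1.02, 0.563 and 0.532 aM in oocytes. In the cytosol it was at 0.784, 0.990 and 0.997 aM in eggs, against 0.276, 0.212 and 0.218 aM in oocytes. The oocyte ER libraries stood above the egg ER libraries, which stood above all pellet and cytosol libraries. prrg4.S (gene1551, 3623 nt) stood at 1.15, 1.72 and 1.93 aM in the 3 egg ER libraries, against 2.40, 2.44 and 2.77 aM in the 3 oocyte ER libraries. Its pellet levels were 2.55, 1.45 and 1.53 aM in eggs, against 1.75, 0.967 and 1.17 aM in oocytes. Egg cytosol held 2.87, 3.38 and 3.50 aM and oocyte cytosol 3.84, 4.02 and 3.42 aM. This was the one transcript of the 8 whose highest group was a cytosol: oocyte and egg cytosol overlapped, both lay above oocyte ER, and the other 3 groups overlapped with their neighbours.

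**Figure D1:**
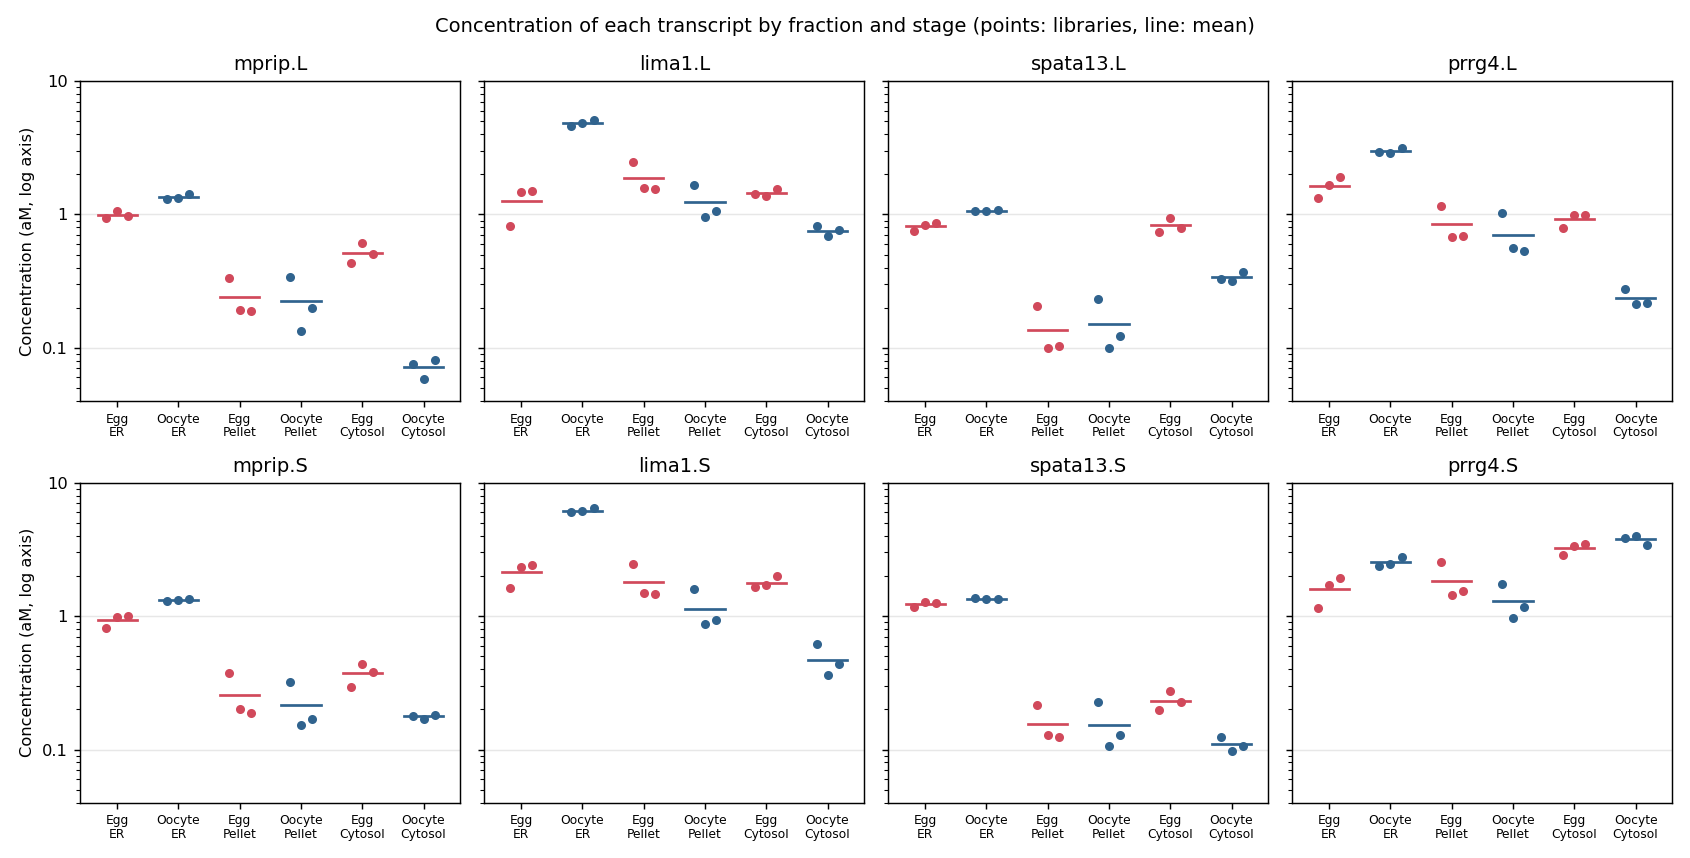
Concentration (aM, log axis) of the 8 transcripts in egg and oocyte ER, pellet and cytosol. Points are the 3 libraries of a group and lines their means. Oocyte ER is the highest group for 7 transcripts and oocyte or egg cytosol for prrg4.S.

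Expressed as a share of each transcript's 3-fraction total, most of 7 of the 8 transcripts lay in oocyte ER. The ER share was 76.0 ± 2.14% in eggs and 83.9 ± 3.82% in oocytes for spata13.S, 56.8 ± 1.79% in eggs and 82.2 ± 5.84% in oocytes for mprip.L, and 59.8 ± 4.55% in eggs and 77.3 ± 4.43% in oocytes for mprip.S (mean ± SD, n = 3 each). Only these 3 had more than 50% in egg ER. For lima1.S the share was 37.3 ± 7.58% in eggs and 79.6 ± 5.59% in oocytes, and for lima1.L 27.7 ± 8.95% in eggs and 71.1 ± 5.36% in oocytes. Next came prrg4.L with 47.9 ± 6.54% in eggs and 76.2 ± 6.08% in oocytes, and spata13.L with 45.9 ± 2.80% in eggs and 68.5 ± 3.07% in oocytes. The name of ER-bound mRNA goes against the values of prrg4.S, which had 23.8 ± 5.54% in egg ER and 33.5 ± 3.85% in oocyte ER, close to the oocyte median of all 25938 transcripts (18.5% in eggs, 32.9% in oocytes).

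Ranked by ER share among the 25938 transcripts, spata13.S was number 6 in eggs and number 5 in oocytes, and mprip.L number 20 in eggs and number 7 in oocytes. The S homeolog of mprip ranked 15 in eggs and 20 in oocytes. The other ranks were 306 in eggs and 15 in oocytes for lima1.S, 58 and 25 for prrg4.L, 1528 and 70 for lima1.L, 87 and 89 for spata13.L, and 3522 and 12141 for prrg4.S, eggs first in each pair. The ER share of all 8 was lower in eggs with no overlap between the stages, also that of prrg4.S, at 17.5, 26.2 and 27.8% in eggs against 30.0, 32.9 and 37.6% in oocytes. A lower, non-overlapping ER share in eggs was the rule across the series, at 79.8% of all transcripts tested, and a higher, non-overlapping cytosol share held for 66.0%.

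**Figure D2:**
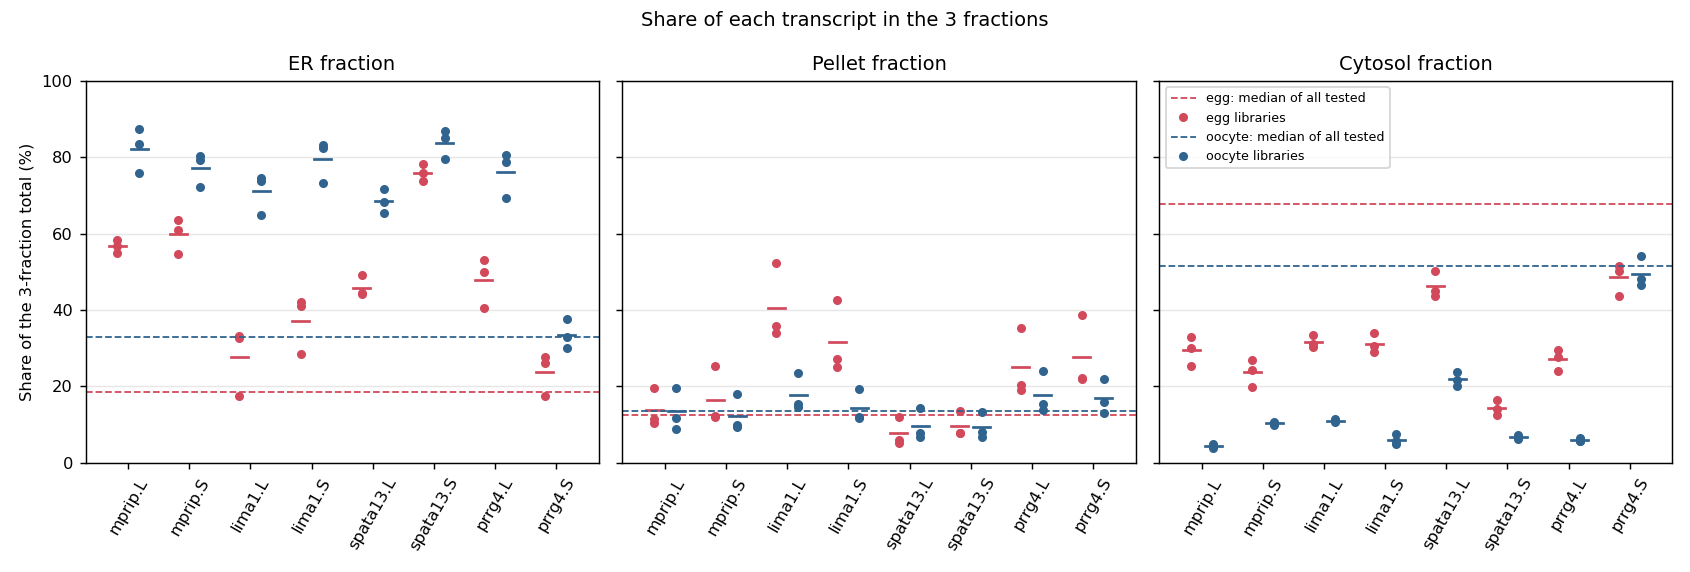
Share (%) of each transcript's 3-fraction aM total in the ER, pellet and cytosol, eggs left of oocytes. Points are libraries, short lines means of 3, and dashed lines the median of all 25938 transcripts tested. The ER share of 7 transcripts is far above the median in oocytes, that of prrg4.S lies near it, and the ER shares of all 8 are lower in eggs.

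The size of the ER enrichment is given by the log2 fold change from edgeR, in which TMM scaling sets the typical transcript to about 0. In oocyte ER over oocyte cytosol it was 4.64 ± 0.10 (log2, ± SE) for mprip.L, 4.18 ± 0.14 for lima1.S, 4.11 ± 0.11 for prrg4.L and 4.06 ± 0.11 for spata13.S. For mprip.S it was 3.38 ± 0.07, for lima1.L 3.19 ± 0.12 and for spata13.L 2.19 ± 0.08, while prrg4.S stood at 0.11 ± 0.07. In aM, mprip.L was 18.9 times as concentrated in oocyte ER as in oocyte cytosol, lima1.S 13.2 times, spata13.L 3.14 times and prrg4.S 0.675 times. The aM values did not overlap between the fractions for any of the 8, with 7 higher in the ER and prrg4.S lower. Across all transcripts tested, 6.28% were higher and 62.2% lower in oocyte ER without overlap. The ER to cytosol contrast chose the genes, so nothing is read from this difference.

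In eggs the same enrichment was 4.17 ± 0.11 for spata13.S, 3.11 ± 0.07 for mprip.S, 2.73 ± 0.09 for mprip.L and 2.58 ± 0.10 for prrg4.L. It was 2.00 ± 0.13 for lima1.S, 1.77 ± 0.08 for spata13.L, 1.55 ± 0.12 for lima1.L and 0.75 ± 0.07 for prrg4.S. On the aM scale, 4 were higher in egg ER without overlap (spata13.S by 5.31 times, mprip.S by 2.52, mprip.L by 1.92 and prrg4.L by 1.77), which 0.528% of all transcripts were. prrg4.S was lower without overlap at 0.491 times, as were 90.9% of all transcripts, and both lima1 homeologs and spata13.L overlapped. The genes were chosen by ER over cytosol, so nothing is read from how these counts differ from the shares of all transcripts. The change of the ER to cytosol ratio from oocyte to egg was -2.17 ± 0.18 for lima1.S, -1.91 ± 0.13 for mprip.L, -1.65 ± 0.16 for lima1.L and -1.53 ± 0.15 for prrg4.L. Those of spata13.L (-0.41 ± 0.11), mprip.S (-0.27 ± 0.09) and spata13.S (0.11 ± 0.15) were nearer 0, and prrg4.S had 0.64 ± 0.10. With libraries scaled to the spike-ins, which moves the median of all transcripts to -0.97, all 8 of these changes were below 0.

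Against the pellet, spata13.S had the highest ER enrichment in both stages, 2.25 ± 0.10 in eggs and 1.73 ± 0.10 in oocytes. spata13.L followed with 1.89 ± 0.08 in eggs and 1.43 ± 0.07 in oocytes. High ER over pellet values of spata13.S were known from earlier results of these data, so nothing is read from its place. The mprip homeologs came next in both stages, mprip.L with 1.38 ± 0.09 in eggs and 1.22 ± 0.09 in oocytes and mprip.S with 1.23 ± 0.06 in eggs and 1.24 ± 0.06 in oocytes. For prrg4.L it was 0.38 ± 0.09 in eggs and 0.71 ± 0.09 in oocytes, and for prrg4.S -0.71 ± 0.07 in eggs and -0.36 ± 0.07 in oocytes. The lima1 homeologs were below 0 in eggs and above 0 in oocytes: lima1.L had -1.09 ± 0.11 in eggs and 0.61 ± 0.11 in oocytes, and lima1.S -0.28 ± 0.12 in eggs and 1.07 ± 0.12 in oocytes. In aM, all 8 were higher in oocyte ER than in oocyte pellet without overlap, as were 73.7% of all transcripts. In eggs 5 were higher without overlap (30.1% of all) and lima1.L was lower (6.27% of all), at 0.819, 1.47 and 1.49 aM in the ER and 2.47, 1.58 and 1.55 aM in the pellet.

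Homeologs of 1 gene share a library, so their ratio does not depend on how libraries are scaled. The quantification can split reads that fit both homeologs, so each ratio is uncertain to that extent. For mprip, lima1 and prrg4, only mprip.L, lima1.S and prrg4.L were chosen by name, by ER over cytosol. A low oocyte cytosol value of these counts toward being chosen and tilts the oocyte cytosol ratio toward the other homeolog. The ratio of prrg4.S to prrg4.L in TPM was 0.874, 1.02 and 1.01 in egg ER and 0.823, 0.855 and 0.891 in oocyte ER, so the homeologs were about equal there. In the pellet it was 2.10, 2.04 and 2.07 in eggs and 1.70, 1.64 and 2.12 in oocytes. In the cytosol it was 3.45, 3.50 and 3.44 in eggs, against 11.6, 15.2 and 14.99 in oocytes, so the S homeolog dominated the cytosol of both stages and far more that of oocytes.

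The ratio of spata13.S to spata13.L was 1.53, 1.52 and 1.44 in egg ER and 1.29, 1.26 and 1.23 in oocyte ER. It stood at 1.05, 1.28 and 1.18 in egg pellet and 0.978, 1.06 and 1.04 in oocyte pellet, and at 0.282, 0.282 and 0.289 in egg cytosol and 0.409, 0.335 and 0.290 in oocyte cytosol. The cytosol was thus the fraction in which spata13.L outnumbered spata13.S, in both stages. For lima1 the ratio was 1.93, 1.58 and 1.60 in egg ER and 1.30, 1.25 and 1.24 in oocyte ER, and 1.16, 1.24 and 1.28 in egg cytosol against 0.770, 0.549 and 0.577 in oocyte cytosol, so that S went above L in the egg cytosol. For mprip it was 0.692, 0.715 and 0.764 in egg cytosol against 2.23, 2.69 and 2.23 in oocyte cytosol, the opposite turn, while the ER and pellet ratios of both stages lay between 0.846 and 1.12.

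In the 5 comparisons per gene that were tested (eggs against oocytes in each fraction, and pellet against cytosol in each stage), the ratios did not overlap in 4 for lima1 and spata13 and in 3 for mprip and prrg4. Of the 4357 homeolog pairs with TPM above 0 in every library, 59.7% did not overlap in at least 3 of these comparisons and 34.2% in at least 4, so such counts were usual. By comparison, 51.0% of pairs did not overlap between egg and oocyte cytosol, 43.9% between egg and oocyte ER and 50.2% between egg and oocyte pellet, and 65.1% between pellet and cytosol in eggs and 67.5% in oocytes. Each of the members' ratios without overlap had p = 0.1 in a two-sided exact permutation test, the smallest that 3 against 3 libraries can give, over 20 such tests. The change between egg and oocyte cytosol, as log2 of the ratio, was -1.998 ± 0.127 (SE) for prrg4, -1.71 ± 0.101 for mprip, 0.97 ± 0.159 for lima1 and -0.26 ± 0.145 for spata13. The tests that use oocyte cytosol share its libraries with the contrast that chose the genes. For prrg4, mprip and lima1, a low oocyte cytosol value of the homeolog chosen by name pushes this change in the direction seen. In the ER the change between eggs and oocytes was 0.43 ± 0.0948 for lima1 and 0.24 ± 0.0332 for spata13, and the ratios of mprip and prrg4 overlapped between the stages.

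**Figure D3:**
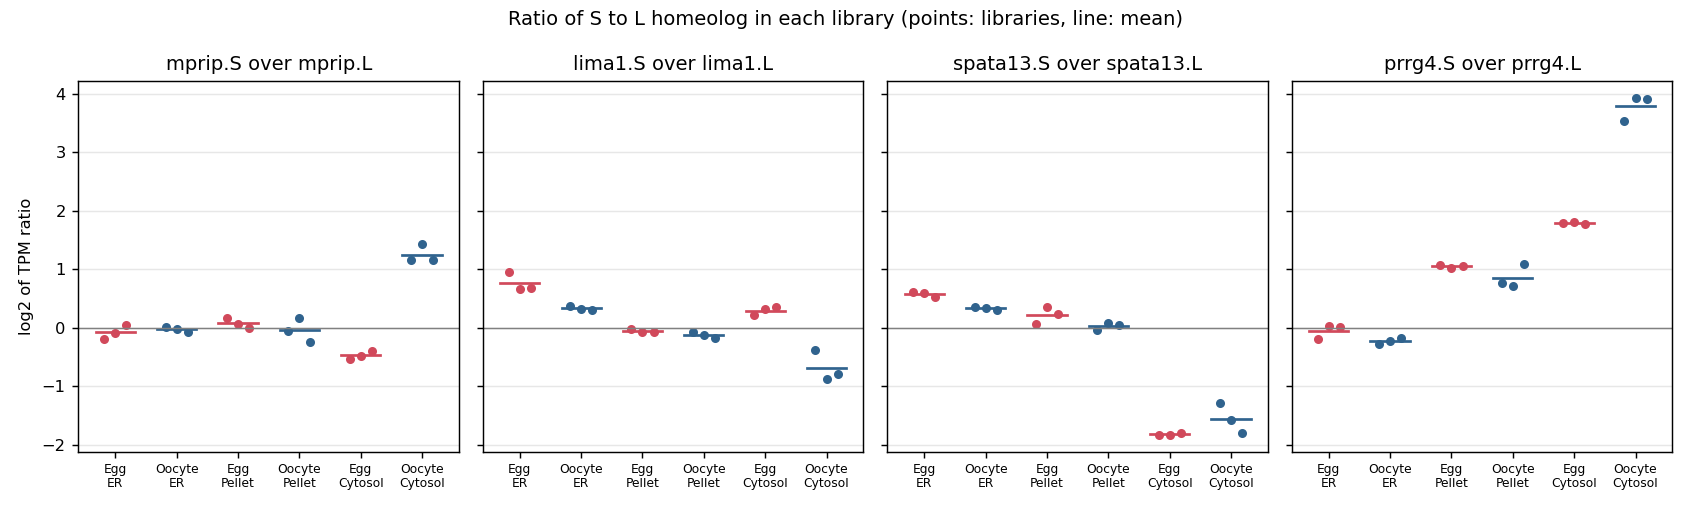
Log2 of the S to L TPM ratio for the 4 genes in each library (points, with the mean as a line), eggs left of oocytes within each fraction. In the ER all ratios lie within 1 log2 unit of 0, and oocyte cytosol stands apart from oocyte ER for all 4 genes. ER against cytosol is the contrast that chose the genes, so nothing is read from that difference.

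The pellet was compared with the cytosol, a contrast that did not choose the genes but shares its cytosol libraries with the one that did. A low cytosol value counts toward being chosen and also raises pellet over cytosol. In oocytes all 8 transcripts were higher in the pellet relative to the typical transcript (35.6% of all transcripts were called higher), by 3.42 ± 0.10 (log2, ± SE; edgeR adjusted p = 9.57e-17) for mprip.L and 3.40 ± 0.11 (edgeR adjusted p = 3.73e-16) for prrg4.L. The other enrichments were 3.11 for lima1.S, 2.58 for lima1.L, 2.33 for spata13.S and 2.14 for mprip.S. The lowest were 0.76 for spata13.L and 0.47 for prrg4.S, and these 2 turn round with spike-in scaling, to -0.98 and -1.29. That scaling moves the median of all transcripts to -1.68, and with it 5 of the 8 were called higher and 2 lower, against 3.89% and 82.8% of all transcripts. Those that stayed higher were mprip.L at 1.68, prrg4.L at 1.65, lima1.S at 1.36, lima1.L at 0.83 and spata13.S at 0.58.

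In eggs 7 of the 8 were higher in the pellet than in the cytosol relative to the typical transcript (34.4% of all transcripts). lima1.L led with 2.63 ± 0.12 (edgeR adjusted p = 1.15e-13), then lima1.S with 2.29, prrg4.L with 2.203, spata13.S with 1.92, mprip.S with 1.89, prrg4.S with 1.46 and mprip.L with 1.34. spata13.L had -0.12 ± 0.08 (edgeR adjusted p = 0.169). Scaled to the spike-ins, which puts the median of all at -1.94, only lima1.L was still called higher at 0.64 (3.20% of all transcripts), while spata13.L at -2.07, mprip.L at -0.63 and prrg4.S at -0.52 were called lower (87.2%). Follicle cell markers were also higher in the pellets (195 to 216 TPM summed in egg pellets and 167 to 180 TPM in oocyte pellets, above all other libraries). In oocytes the oocyte markers were highest in the pellets too, at 7868 to 8657 TPM against 1880 to 2120 TPM in the ER and cytosol. The part of either list in these pellet values was not tested.

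Maturation was asked about within each fraction. In the cytosol 7 of the 8 transcripts rose in eggs on every scale used, and 18.4% of all transcripts were called higher and 18.6% lower. mprip.L rose most, by 2.16 ± 0.10 (edgeR adjusted p = 2.48e-13) or 7.201 times in aM. prrg4.L rose by 1.36 ± 0.11 (edgeR adjusted p = 3.19e-09), 3.92 times in aM, and lima1.S by 1.36 ± 0.13 (edgeR adjusted p = 3.94e-08), 3.79 times in aM. The rise was 0.71 for spata13.L, 0.45 for mprip.S, 0.44 for spata13.S and 0.42 for lima1.L. Without replicate 1 of egg cytosol the last of these was no longer called, at 0.32 with an edgeR adjusted p of 0.0568. Spike-in scaling called the same 7 higher, against 10.1% of all transcripts, and their aM values did not overlap between the stages, as for 56.0% of all. prrg4.S fell by 0.62 relative to the typical transcript (edgeR adjusted p = 1.92e-07), but its aM values overlapped, and with spike-in scaling it had -0.36 (edgeR adjusted p = 0.367). These tests share the oocyte cytosol libraries with the contrast that chose the genes, in which a low oocyte cytosol value counts toward being chosen.

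In the ER the direction of most members depended on the scale. These tests share the oocyte ER libraries with the contrast that chose the genes, in which a high oocyte ER value counts toward being chosen. Both lima1 homeologs fell in eggs on every scale, lima1.L by 1.22 on the log2 scale (edgeR adjusted p = 3.94e-08) to 0.259 times its oocyte level in aM, and lima1.S by 0.81 (edgeR adjusted p = 3.17e-05) to 0.343 times. Relative to the typical transcript, spata13.S at 0.55 ± 0.09 (edgeR adjusted p = 8.02e-05), spata13.L at 0.30, mprip.L at 0.24 and mprip.S at 0.18 were called higher in egg ER, but all 4 are below 0 with spike-in scaling, at -0.16, -0.41, -0.47 and -0.52. Across all transcripts 12.4% were called higher and 16.1% lower. The call of mprip.L was lost in 5 of the 6 fits that left out 1 egg or oocyte ER library, and that of mprip.S without replicate 3 of oocyte ER or replicate 1 or 2 of egg ER. prrg4.L had -0.16 ± 0.09 (edgeR adjusted p = 0.214) and prrg4.S 0.02 ± 0.07 (edgeR adjusted p = 0.861). In aM all 8 were lower in egg ER without overlap, as were 69.0% of all transcripts, with ratios of 0.911 for spata13.S to 0.259 for lima1.L. Spike-in scaling, with a median of -0.71 over all transcripts, called 5 of the 8 lower (61.3% of all), namely both lima1 and both prrg4 homeologs and mprip.S.

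In the pellet 4 of the 8 were called higher in eggs relative to the typical transcript (22.3% of all): lima1.S by 0.54 ± 0.12 (edgeR adjusted p = 0.00109), lima1.L by 0.48 ± 0.11 (edgeR adjusted p = 0.00108), prrg4.S by 0.37 ± 0.07 (edgeR adjusted p = 9.32e-05) and mprip.S by 0.20 ± 0.06 (edgeR adjusted p = 0.0157). With spike-in scaling none of the 8 was called, against 5.46% of all transcripts called higher, and in aM every member overlapped between the stages. The replicate 1 pellets, with the highest aM of all 8 members in both stages, widen that range. The call of mprip.S was lost without replicate 3 of oocyte pellet. prrg4.L, at 0.17 ± 0.09 (edgeR adjusted p = 0.160), was called without replicate 2 of oocyte pellet or replicate 1 of egg pellet, and spata13.L, at -0.17 ± 0.08 (edgeR adjusted p = 0.0890), without replicate 3 of oocyte pellet.

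**Figure D4:**
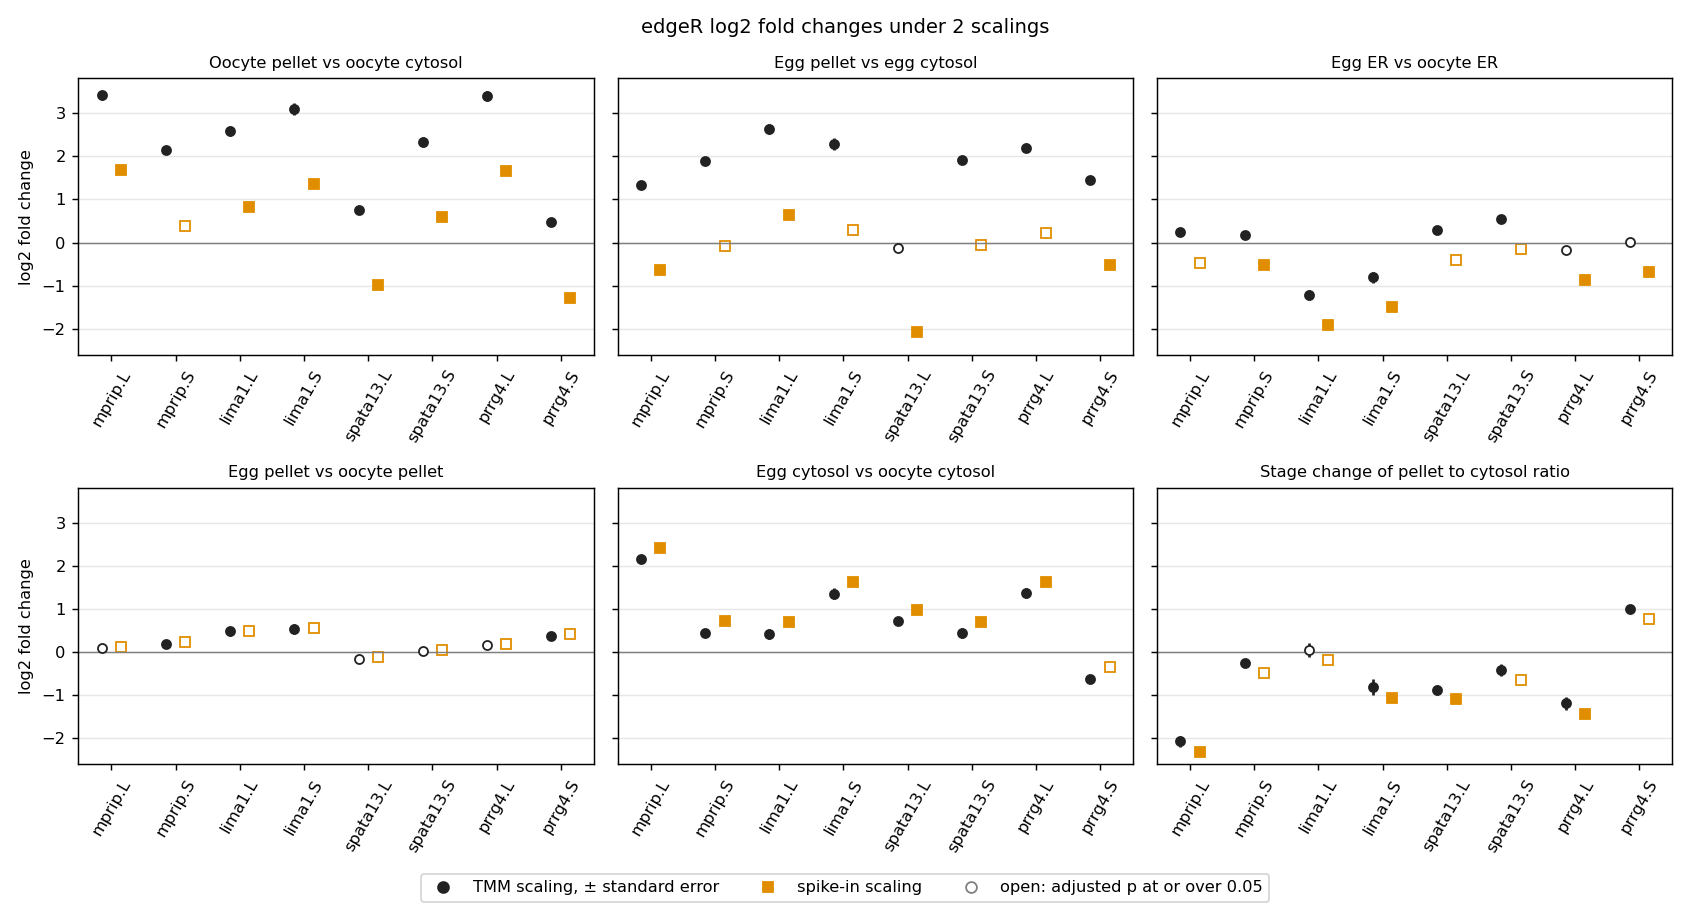
Log2 fold changes of the 8 transcripts in the 6 comparisons that were tested, with TMM scaling (circles, ± SE) and with spike-in scaling (squares), filled where the adjusted p is under 0.05. The scalings lie far apart for pellet against cytosol and for the ER between stages, and close together for the cytosol between stages.

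Whether the pellet to cytosol ratio itself changed between the stages was tested as an interaction. This test shares its cytosol libraries with the contrast that chose the genes. A low oocyte cytosol value counts toward being chosen and also pushes the interaction below 0. The ratio was lower in eggs for 6 of the 8 (23.4% of all transcripts) and higher for prrg4.S (23.7% of all), by 0.99 ± 0.10 (edgeR adjusted p = 1.41e-08). mprip.L changed most, by -2.07 ± 0.13 (edgeR adjusted p = 2.11e-11), then prrg4.L by -1.20 ± 0.15 (edgeR adjusted p = 5.64e-07), spata13.L by -0.88 ± 0.11 (edgeR adjusted p = 5.60e-07) and lima1.S by -0.82 ± 0.18 (edgeR adjusted p = 0.000668). These 4 were also called lower with spike-in scaling (12.4% of all transcripts), where the median of all was -0.22, and mprip.S, spata13.S and prrg4.S no longer were. spata13.S at -0.42 ± 0.15 (edgeR adjusted p = 0.0248) and mprip.S at -0.25 ± 0.10 (edgeR adjusted p = 0.0319) lost their calls in several fits without 1 library. lima1.L had 0.06 ± 0.16 (edgeR adjusted p = 0.818).

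Summed over the 3 fractions, lima1.L came to 4.71, 4.42 and 4.58 aM in the 3 egg sets and 7.08, 6.47 and 6.97 aM in the 3 oocyte sets, and lima1.S to 5.74, 5.54 and 5.85 aM in eggs and 8.23, 7.34 and 7.81 aM in oocytes. Egg totals were thus 0.669 and 0.733 times the oocyte totals, with no overlap. All transcripts together add up to 70657 aM in every set. Each total is therefore relative to that fixed sum, and a change in mRNA per cell cannot be read from it. In egg ER lima1.L fell by 3.60 aM relative to oocyte ER, and it was 0.690 aM higher in egg cytosol and 0.638 aM higher in egg pellet. For mprip.L the egg to oocyte difference was -0.360 aM in the ER and 0.444 aM in the cytosol, and its total was 1.74 ± 0.0951 aM in eggs and 1.64 ± 0.0992 aM in oocytes. For spata13.S the total was 1.62 ± 0.0481 aM in eggs and 1.62 ± 0.0902 aM in oocytes. Totals of mprip.S (0.912 times the oocyte level), prrg4.L (0.868) and prrg4.S (0.882) were lower and that of spata13.L (1.15) higher in eggs without overlap. A total that was lower without overlap was seen for 9.20% of all transcripts and a higher one for 30.7%. Most of the oocyte total of every member but prrg4.S lay in oocyte ER. A high oocyte ER value counts toward being chosen and pushes egg totals below oocyte totals. Each of the 6 totals without overlap had p = 0.1 in the two-sided exact permutation test, the smallest that 3 against 3 sets can give, and those of mprip.L (p = 0.5) and spata13.S (p = 0.9) overlapped in the same exact test.

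The share of the total in the pellet was higher in eggs without overlap for lima1.L, at 52.4, 35.8 and 33.9% in eggs against 23.6, 14.7 and 15.3% in oocytes. It was so too for lima1.S, at 42.5, 27.1 and 25.04% in eggs against 19.4, 11.8 and 12.0% in oocytes, and for prrg4.S, at 38.8, 22.2 and 22.0% in eggs against 21.9, 13.02 and 15.9% in oocytes. The exact permutation p was 0.1 for each of these, and 4.54% of all transcripts had a higher share without overlap. Each share divides by a total that includes the ER. A high oocyte ER value counts toward being chosen and by itself lowers the oocyte pellet share. Pellet shares of the other 5 members overlapped between the stages, with exact permutation p of 0.4 to 1. Without oocyte replicate 1, whose pellet held the most aM, 5 of the 8 shares did not overlap. The like share over all transcripts was not counted, and fewer sets overlap less readily, so nothing is read from this count. Median pellet shares of all transcripts were 12.5% in eggs and 13.5% in oocytes.

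The authors' deposited table gives its own ratios and q-values for 4 of these contrasts. Its ratio of egg to oocyte in the cytosol had a q-value under 0.05 for 5 of the 8, from 7.201 for mprip.L (q = 0.0393) to 1.91 for lima1.L (q = 0.0384) in the authors' deposited table, and not for mprip.S (q = 0.0633), spata13.S (q = 0.0565) or prrg4.S (q = 0.263), while 11.0% of the transcripts tested here that have a q-value were higher with q under 0.05. In the ER the authors' deposited table has q under 0.05 for 6, among them lima1.L (ratio 0.259, q = 0.0185) and lima1.S (ratio 0.343, q = 0.0184), and not for spata13.S (q = 0.0628) or prrg4.S (q = 0.0679). All 8 have a ratio below 1 there, and 38.8% of transcripts were lower with q under 0.05. These ratios are of the same aM values, so they are no separate evidence.

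The deposited table also classes transcripts by their place along the animal to vegetal axis of the oocyte. Both mprip homeologs, lima1.L and prrg4.L were classed extremely animal, which 2.54% of the 11468 classed transcripts were, and the other 4 members animal, as were 94.9%. The 282 other extremely animal transcripts that were tested had a median log2 change of 0.20 in egg ER over cytosol and 0.44 in oocyte ER over cytosol. In oocytes 173 of them were called higher in the ER and 14 lower, against 24.3% and 24.8% of all transcripts. In eggs 113 were called higher and 52 lower, against 18.4% and 21.7%. In the contrasts that did not choose the genes, 221 of the 282 were called higher in egg pellet over egg cytosol (median 0.78) and 220 in oocyte pellet over oocyte cytosol (median 0.98), against 34.4% and 35.6% of all transcripts. In ER over pellet, 41 were called higher and 179 lower in eggs, against 29.4% and 30.6% of all transcripts. In oocytes 65 were higher and 134 lower there, against 30.9% and 28.0%. Between the stages, 108 were called higher and 59 lower in egg cytosol, against 18.4% and 18.6% of all transcripts. In egg ER 21 were higher and 114 lower, against 12.4% and 16.1%. These counts are relative to the typical transcript, as TMM sets it.

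The members ranged from 3623 nt for prrg4.S to 17560 nt for mprip.L, against a median of 4024 nt for all transcripts tested. mprip.L was longer than 98.8% of them, mprip.S than 97.2%, and both spata13 homeologs than 88.8%. Among the 14595 tested transcripts of at least 3623 nt, the median log2 change in oocyte ER over cytosol was -0.13 (quartiles -0.44 and 0.22), and among the 11335 shorter ones 0.17. The mRNAs of prrg4.L and prrg4.S differ little in length and stood at 4.11 and 0.11. This is the contrast by which prrg4.L was chosen by name and prrg4.S was not. The part of length in these values was not tested.

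Other mRNAs of the same pathways were counted in the same fit, in the contrast that chose the genes. Over all transcripts tested, 18.4% were called higher and 21.7% lower in egg ER over cytosol, and 24.3% higher and 24.8% lower in oocyte ER over cytosol. Of 46 tested transcripts of myosin phosphatase and RhoA signalling, 7 were called higher and 21 lower in egg ER over cytosol, and 13 higher and 19 lower in oocyte ER over cytosol, with a median log2 change of -0.12 in eggs and -0.07 in oocytes. The highest in oocytes was dapk3.L, a kinase of myosin light chain regulation, at 1.55 ± 0.092 (SE), and the lowest myh9.S, a nonmuscle myosin heavy chain, at -1.44 ± 0.065. Of 41 LIM and actin bundling transcripts, 1 was called higher and 22 lower in eggs, and 9 higher and 18 lower in oocytes (medians -0.29 and -0.16). Their extremes in oocytes were limd1.L, a LIM scaffold protein, at 1.15 ± 0.078, and pdlim5.L, which holds PDZ and LIM domains, at -1.03 ± 0.126.

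The same shares of all transcripts (18.4% higher and 21.7% lower in eggs, 24.3% higher and 24.8% lower in oocytes) stand beside the other lists. Of 45 transcripts for Rac and Cdc42 exchange factors and their partners, 4 were higher and 25 lower in egg ER over cytosol, and 9 higher and 24 lower in oocyte ER over cytosol, with medians of -0.27 in eggs and -0.35 in oocytes. They ran in oocytes between plekhg1.S at 1.02 ± 0.078 and trio.L at -1.17 ± 0.066, both exchange factors. Of 30 transcripts of Gla domain proteins and WW domain partners, 7 were higher and 9 lower in eggs, and 9 higher and 4 lower in oocytes (medians -0.04 and 0.10). Its extremes in oocytes, the guidance receptor robo1.L at 1.94 ± 0.642 and the clotting factor f9.S at -0.87 ± 0.455, rest on levels under 0.03 aM. Transcripts of the ER translocon and signal recognition machinery numbered 66, of which 21 were higher and 24 lower in eggs, and 31 higher and 9 lower in oocytes, with medians of -0.08 and 0.17. The highest was ssr1.L, a subunit of the translocon-associated complex, at 1.38 ± 0.081 in eggs and 3.62 ± 0.091 in oocytes, and the lowest in oocytes rrbp1.S, a ribosome-binding ER protein, at -1.36 ± 0.112.

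Among 7631 other transcripts with a symbol and at least 32 CPM on average, those most like each member were found by the Euclidean distance between the 6 group means of log2(CPM + 1), each profile centred on its own mean. The nearest to mprip.S was c7orf43.L at 0.316 (r = 0.994 over 18 libraries), with an ER share of 57.6% in eggs and 78.6% in oocytes. snph.S was nearest to spata13.S at 0.993 (ER share 63.8% in eggs and 73.9% in oocytes), ifrd2.L nearest to mprip.L at 1.03 and to lima1.S at 0.708 (39.6% in eggs and 79.4% in oocytes), and slc48a1.L nearest to prrg4.L at 0.716 (48.6% in eggs and 72.4% in oocytes). cd9.S was nearest to lima1.L at 0.883, and taok1.L to spata13.L at 0.490. The profile nearest to prrg4.S was srp72.S, the mRNA of a signal recognition particle protein, at 0.136, with 22.6% in egg ER and 33.8% in oocyte ER. Between the members themselves, lima1.S and prrg4.L were closest at 0.560, closer than any gene's own homeologs, which were 1.08 apart for lima1, 1.25 for mprip, 2.23 for spata13 and 3.16 for prrg4. These correlations share libraries and depth and are given as a description. The distances also use the ER and cytosol values by which lima1.S and prrg4.L were both chosen. lima1.L, mprip.S and prrg4.S were not chosen by them, so the choice itself favours such an order.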

How the data were processed

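Estimated counts, transcript lengths and TPM per transcript were made by the authors with kallisto 0.46.2 after bcl2fastq 2.20, per the submitters' processing notes. Neither the build nor the transcript set is given in the sources used here, and positions in the genome are left out. Whole numbers made up 49.6 to 53.3% of a library's nonzero deposited estimated counts. The deposited attomolar values are a signal that the authors derived from TPM by regression on 5 spike-in RNAs, per the labels. The deposited percent values say how a transcript's attomolar sum divides among 3 fractions, and each deposited ratio is the quotient of 2 group means in aM. How the authors tested these ratios for their q-values is not stated. Reads were 101 cycles per end. Another 24 columns of the series tables were not used.

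Estimated counts were rounded; 5 spike-ins and 1 transcript without a name were left out of the 51032 in each library table. filterByExpr by group left 25938, which went into 1 quasi-likelihood fit of all 18 libraries (edgeR 4.0.16, glmQLFit and glmQLFTest after TMM, under R 4.3.3) with 12 residual degrees of freedom, with Benjamini-Hochberg adjustment over all 25938 and calls at an adjusted p under 0.05. By construction TMM centres most transcripts near no change. The 11 comparisons comprise 6 that were tested and 5 that are described. Comparisons that share a group share its chance values. Alternatives were DESeq2 1.42.0 size factors and Wald test, no filter, library sizes from spike-in counts, limma 3.58.1 on log2(aM + 0.01), a replicate block, only the groups compared, no ccdc50.L, and each library left out. Totals, pellet shares and homeolog ratios had two-sided exact permutation tests, adjusted for nothing since their members were chosen. Scripts were tested on simulated data.

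Same-numbered libraries of a stage correlated in their deviations from group means by 0.09 to 0.22 over 18 pairs, and those of different stages by -0.05 to 0.03 over 21. All pairs were above 0.1 for ER with pellet in both stages and ER with cytosol in oocytes, which are described only. Cytosol with pellet, which is tested, was close to these, at 0.0987 to 0.165 in oocytes and 0.0966 to 0.147 in eggs. The main fit does not use the replicate number, and the labels do not say what a number shares.

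The members, gene lists and named-gene rule (all members, the highest and lowest of each list in oocyte ER over cytosol, and the 3 profiles nearest each member, of which the first is printed) were chosen with earlier results of these data known. The symbols gave 8 transcripts where 5 had been listed, and homeolog ratios of mprip, lima1 and prrg4 were added after the data were seen. Sequences of these transcripts were not used here.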

Additional observations from a re-analysis of the deposited data

Results flagged for a closer look

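The pellet to cytosol ratio of 7 of the 8 transcripts differed between eggs and oocytes by the test of the difference itself, the interaction term of the edgeR fit. As egg minus oocyte on the log2 scale it was -2.073 for mprip.L, -1.195 for prrg4.L, -0.880 for spata13.L, -0.820 for lima1.S, -0.418 for spata13.S and -0.254 for mprip.S. The sign was the other for prrg4.S, at 0.995. Across all transcripts tested the ratio changed in 47.2%, so a change by itself sets these transcripts apart little. The test also uses the oocyte cytosol libraries, whose low values counted toward choosing the genes and push the difference below 0. Follicle cell markers, higher in pellets, oocyte markers, higher in oocyte pellets, and the higher aM of the replicate 1 pellets move with the pellet values. The part of each was not tested.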

How the results depend on the processing

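The choice of scale moved the most. Spike-in scaling and limma on log2(aM + 0.01), in that order, gave the members' median log2 change as 2.900 and 3.178 for oocyte ER over cytosol (3.721 with TMM), 0.510 and 0.522 for egg ER over cytosol (2.293), 2.074 and 2.562 for oocyte ER over pellet (1.146), 0.996 and 1.439 for egg ER over pellet (0.802), and -1.936 and -2.222 for the stage change of ER to cytosol (-0.970). In egg pellet over cytosol TMM called 7 members higher (34.4% of all transcripts). Spike-in scaling called 1 higher (3.20%) and 3 lower (87.2%), and limma 3 lower (91.6%). In egg over oocyte pellet TMM called 4 higher (22.3%). Neither other scale called any, against 5.46% and 2.25% of all called higher. In the stage change of pellet to cytosol TMM called 1 higher (23.7%) and 6 lower (23.4%). The other scales called 4 lower each (12.4% and 13.7%). In egg over oocyte ER TMM called 4 higher (12.4%) and 2 lower (16.1%), and limma 3 lower (25.3%). With the same order of scalings these turned round: in oocyte pellet over cytosol spata13.L (-0.979, -1.197) and prrg4.S (-1.290, -1.572); in egg pellet over cytosol mprip.L (-0.631, -1.117), mprip.S (-0.082, -0.574), spata13.S (-0.066, -0.574), prrg4.S (-0.521, -0.857) and, by limma alone, lima1.S (-0.022) and prrg4.L (-0.171); in egg over oocyte ER mprip.L (-0.471, -0.445), mprip.S (-0.520, -0.500), spata13.L (-0.405, -0.377), spata13.S (-0.159, -0.134) and prrg4.S (-0.678, -0.694); and lima1.L in the stage change of pellet to cytosol (-0.195, -0.319). TMM sets the median of all transcripts near 0 by construction, and the other scales do not. Totals from TPM over spike-in TPM gave 0.9773 for spata13.S.

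Leaving out 1 library or replicate at a time gave -0.058 to 0.131 for prrg4.S in egg over oocyte ER, -0.021 to 0.120 for spata13.S in egg over oocyte pellet, and -0.051 to 0.161 for lima1.L in the stage change. The total of spata13.S ranged from 0.9856 to 1.037, and egg over oocyte pellet shares from 0.8065 to 1.336 for mprip.L, 0.9839 to 1.727 for mprip.S, 0.823 to 1.297 for spata13.S and 0.5777 to 1.062 for spata13.L. Pellet shares without overlap numbered 3 to 5, the 5 without oocyte replicate 1. The like shares over all transcripts were not counted for these fits, so nothing is read from that range. With 2 libraries left in a group, its spread is taken to be like that of the others.

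With the replicate number as a block no call of a member changed in any of the 6 tested comparisons. Among all 25938 transcripts this fit called 9353 higher in oocyte pellet over cytosol (all 8 members) and 8992 in egg pellet over cytosol (7). In egg over oocyte cytosol 5001 were called higher (7 members) and 5088 lower (1). In egg over oocyte ER 3511 were higher (4 members) and 4523 lower (2). In egg over oocyte pellet 6025 were higher (4 members). In the stage change of pellet to cytosol 6332 were higher (1 member) and 6266 lower (6). The count of pellet shares that moved the same way in every same-numbered pair was 6, against 3 without overlap. That of spata13.L was lower in eggs, and those of mprip.S and both lima1 and both prrg4 homeologs were higher. The labels do not say that same-numbered eggs and oocytes belong together, and the like count over all transcripts was not made. Nothing is therefore read from the count over pairs. DESeq2's Wald test, its size factors, and a fit of only the groups compared kept every member's direction and side of the threshold. Without the filter spata13.L was called in egg pellet over cytosol (-0.17, edgeR adjusted p = 0.049), prrg4.L in egg over oocyte pellet, and mprip.S was not in the stage change. Every cause of these shifts other than the scaling was not tested. Depth limits the members little, with at least 262.4 estimated counts in each library.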
